A study of Rattus norvegicus with 10 samples.

Results

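Cholesterol synthesis was followed through 7 genes, *Hmgcs1*, *Idi1*, *Fdft1*, *Sqle*, *Cyp51*, *Dhcr7* and *Insig1*, which were chosen by symbol, and all 7 had exactly 1 row among the 12828 genes of the authors' deposited table. The first 6 encode enzymes of the route to cholesterol and *Insig1* encodes its sterol-dependent brake. None of the 7 encodes an uptake receptor, so uptake is described through a separate list of genes. RNA had been sequenced from the hand-dissected arcuate nucleus of the hypothalamus (ARC) of 10 Wistar dams killed at parturition after a daytime fast. Of these dams, 5 had been fed a pregnancy diet with folic acid at 5X the recommended amount (5X-FA) and 5 an equimolar diet with [6S]-5-methyltetrahydrofolic acid, calcium salt (5X-MTHF). All were first-time pregnant, both diets were on an AIN-93G base and were fed only in pregnancy, and no dam on the recommended amount was among the sequenced samples.

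The level used throughout is the authors' log2 CPM, a single value per gene whose header names no sample. It is read here as the average over all libraries, for both diets together. The deposited values are labelled diet A against diet B, which are taken here to be 5X-FA and 5X-MTHF without saying which is which. CPM is the number of reads of a gene per 1000000 reads, so it is a share of the reads and grows with transcript length as well as with transcript number. Values per dam could not be tied to a diet or a dam by their headers and were not used. Hence no spread between dams is given, and no difference between 5X-FA and 5X-MTHF was tested for any of these genes.

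Neurons and glia of the adult brain make their own cholesterol, because the lipoproteins of the blood do not cross the blood-brain barrier. Acetyl units are condensed to HMG-CoA and mevalonate, built up to the isoprenoids and squalene, and closed into a ring that is then trimmed to cholesterol. The supply is governed by SREBP2, a membrane-bound transcription factor. When sterols are scarce its escort SCAP carries it to the Golgi to be cut free, and when sterols are plentiful INSIG proteins hold SCAP back in the endoplasmic reticulum. The enzymes of the route and *Insig1* are textbook targets of this factor, which acts at their promoters together with NF-Y and Sp1. The promoters are therefore shown first, with short letter motifs of these factors in capitals.

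The RefSeq promoter table, on the rat build GRCr8, held windows for 5 of the 7 genes, from 250 bases before to 50 bases after an annotated start. *Fdft1* and *Sqle* had none. The windows of *Hmgcs1*, *Idi1*, *Dhcr7* and *Insig1* are shown because together they hold every kind of match that was found. Each run is the 250 bases before the start, written 5′ to 3′ on the gene's own strand. They lie at chr2:53382054-53382303 on the plus strand for *Hmgcs1*, chr17:66547525-66547774 on the minus strand for *Idi1*, chr1:208444184-208444433 on the plus strand for *Dhcr7* and chr4:8057770-8058019 on the minus strand for *Insig1*. Capitals mark the words searched for, on either strand. The NF-Y word is CCAAT, which reads ATTGG when it lies on the other strand. The Sp1 word is GGGCGG, which reads CCGCCC on the other strand. The TATA box is spelled TATAAA, and the E-box is the palindrome CACGTG.
Hmgcs1: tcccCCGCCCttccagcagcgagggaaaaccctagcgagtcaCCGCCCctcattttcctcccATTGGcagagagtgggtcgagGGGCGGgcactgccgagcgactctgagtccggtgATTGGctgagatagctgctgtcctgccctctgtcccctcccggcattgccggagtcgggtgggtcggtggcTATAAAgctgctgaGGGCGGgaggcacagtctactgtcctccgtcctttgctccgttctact
Idi1: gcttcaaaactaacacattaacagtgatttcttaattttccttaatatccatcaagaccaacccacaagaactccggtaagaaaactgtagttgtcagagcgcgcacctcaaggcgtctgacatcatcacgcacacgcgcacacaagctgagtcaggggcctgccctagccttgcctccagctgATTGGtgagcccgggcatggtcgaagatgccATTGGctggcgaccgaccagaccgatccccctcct
Dhcr7: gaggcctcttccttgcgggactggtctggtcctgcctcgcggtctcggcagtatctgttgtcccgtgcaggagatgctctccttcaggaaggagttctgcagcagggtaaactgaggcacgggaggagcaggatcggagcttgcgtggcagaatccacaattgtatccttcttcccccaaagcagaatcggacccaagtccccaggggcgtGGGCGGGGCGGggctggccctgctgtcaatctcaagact
Insig1: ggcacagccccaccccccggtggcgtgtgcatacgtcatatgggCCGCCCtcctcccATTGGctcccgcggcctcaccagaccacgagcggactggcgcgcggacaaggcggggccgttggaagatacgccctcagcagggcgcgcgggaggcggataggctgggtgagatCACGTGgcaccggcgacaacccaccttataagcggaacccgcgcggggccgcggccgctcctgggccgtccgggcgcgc

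The CCAAT letters, the core bound by NF-Y, occurred in 3 of the 5 windows, against 37.5% of all 33469 windows and 37.0% of the 10623 windows whose gene has a row in the expression table. *Hmgcs1* held 2 matches 55 bases apart, at -188 and -133 from the start, *Idi1* held 2 matches 31 bases apart, at -66 and -35, and *Insig1* held 1 at -193. All 5 matches, in 3 windows, read ATTGG on the gene's strand, whereas 49.0% of the CCAAT matches in all windows lay on the gene's strand. In the lists described below, those on the gene's strand were 10 of 30 for other synthesis enzymes and 0 of 7 for SREBP control. They were 2 of 5 for uptake, 1 of 8 for efflux and 4 of 8 for fatty acid genes, and no difference in strand was tested. The windows of *Cyp51* and *Dhcr7* held none of these letters.

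The GGGCGG letters of an Sp1 box occurred in 4 of the 5 windows, against 33.1% of all windows and 61.7% of the windows of genes in the table. *Hmgcs1* held 4 matches, the most of the 5 genes, at -246, -208, -167 and -48. *Dhcr7* held 2 matches that share a base, at -39 and -34. *Cyp51* held 1 at -127 and another at 41, after the start. *Insig1* held 1 at -206, just upstream of its CCAAT match, and *Idi1* held none.

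CACCCCAC, a core of the sterol regulatory element to which SREBP binds, was found in 0 of the 5 windows. It is a rare word, present in 2.70% of all windows and 2.44% of those of genes in the table. Real elements vary in their letters and may lie outside these windows, so the count says only that this spelling is not there. In addition, 2 motifs chosen after the windows were read had 1 match each. TATAAA stood at -62 in *Hmgcs1* (14.2% of all windows hold it, and 6.72% of those of genes in the table), and CACGTG, an E-box that SREBP can also bind, stood at -79 in *Insig1* (6.42% and 9.15%).

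All 5 windows had a GC content above the median of all windows, but that of *Idi1* was below the median of windows of genes in the table. The GC content was 71.3% in *Insig1*, 69.0% in *Cyp51*, 65.0% in *Hmgcs1*, 63.0% in *Dhcr7* and 53.7% in *Idi1*, with a median of 65.0% over the 5, against 51.7% over all windows and 61.0% over the windows of genes in the table. The ratio of observed to expected CpG ran from 0.573 in *Dhcr7* to 0.996 in *Insig1*. Its median of 0.69 over the 5 windows stood beside 0.39 over all windows and 0.76 over those of genes in the table. On both measures the median of the 5 windows lay closer to that of genes in the table than to that of all windows. The start used for *Hmgcs1* lies 2847 bp inside the span that RefSeq gives the gene, and that of *Insig1* lies 43 bp inside, so other starts of these genes have promoters that were not searched.

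**Figure D1:**
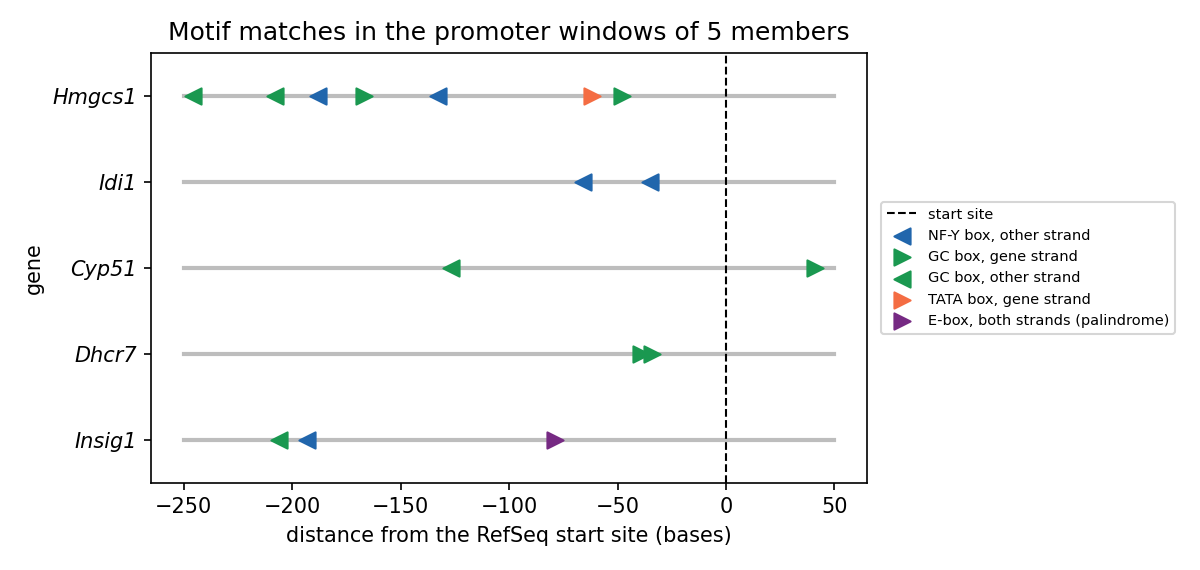
Positions of motif matches in the RefSeq promoter windows of 5 members, as distance in bases from the annotated start; arrowheads give the strand and colours the kind of motif. *Hmgcs1* holds 4 GC boxes (GGGCGG) and 2 NF-Y boxes, *Idi1* a pair of NF-Y boxes within 66 bases of the start, and every NF-Y box lies on the strand opposite to the gene.

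Among the enzymes, *Hmgcs1* took the most reads. *Hmgcs1* (ENSRNOG00000016552) encodes the cytosolic HMG-CoA synthase, an early enzyme of the route, and lies on chromosome 2 of Rnor_6.0 from 52431601 to 52445055. Its average log2 CPM was 8.72, or 422 CPM, and 97.9% of all rows were at or below it. Only 266 of the 12828 rows had a larger read share.

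*Idi1* (ENSRNOG00000016690), the isomerase that turns isopentenyl diphosphate into the starter of the isoprenoid chain, lies on chromosome 17 from 57976268 to 57984036. Its average of 64.1 CPM put it at percentile 71.6 of the read shares. The span of *Idi1* overlaps that of *Wdr37* by 100 bp, and *Wdr37* has an average log2 CPM of 6.71. The library was strand-specific by the paper's methods, but the strand setting of the count is not given in the sources used here, so reads in the shared 100 bp may have been lost or split.

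*Fdft1* and *Sqle* stand at the branch where the route commits to sterols. *Fdft1* (ENSRNOG00000021314), squalene synthase, lies on chromosome 15 from 46339249 to 46367302 and had an average log2 CPM of 7.11, or 138 CPM, at percentile 88.2. *Sqle* (ENSRNOG00000009550), the epoxidase that adds the first oxygen to squalene, lies on chromosome 7 from 99609191 to 99624732. It had an average log2 CPM of 6.61, or 97.5 CPM, at percentile 82.0.

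*Cyp51* and *Dhcr7* act after the ring has closed. *Cyp51* (ENSRNOG00000007234), the demethylase of lanosterol, lies on chromosome 4 from 27175243 to 27194018 and had an average log2 CPM of 7.79, or 222 CPM, at percentile 94.1. *Dhcr7* (ENSRNOG00000020776), which reduces 7-dehydrocholesterol to cholesterol, lies on chromosome 1 from 217018916 to 217034904. With an average log2 CPM of 4.80, or 27.9 CPM, *Dhcr7* was the only one of the 7 genes below the median of all rows (4.94), at percentile 47.0.

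*Insig1* (ENSRNOG00000006859), the anchor that retains SCAP in the endoplasmic reticulum, lies on chromosome 4 from 342302 to 350515, 26.8 Mb from *Cyp51*. Its average log2 CPM was 6.58, or 95.9 CPM, at percentile 81.6. The related *Insig2*, named after its value was seen, had an average log2 CPM of 4.55. Apart from *Idi1*, none of the members overlapped another row of the table, and the nearest other row lay between 887 bp (*Washc5*, beside *Sqle*) and 132703 bp away (*Htr5a*, beside *Insig1*).

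In all, 5 of the 7 genes were among the 25% of rows with the largest read shares, *Idi1* was between these and the median, and *Dhcr7* was below the median. Together they took 0.106% of the reads, or 1067 CPM. Between *Dhcr7* and *Hmgcs1* the average log2 CPM ran from 4.80 to 8.72, a median of 6.61 over the 7 genes beside 4.94 over all rows. The genes lie on 6 chromosomes. If 1000000 reads are taken, counting alone gives a relative error of 4.87% for *Hmgcs1* and 18.9% for *Dhcr7*, the best and the least well counted of the 7. The paper states a depth per sample well above 1000000 reads, at which these errors would be smaller. They cover counting only, since the exact depth of each library and the spread between dams were not available from the value used. RefSeq also lists pseudogenes named for *Idi1* (chromosome 5) and for *Cyp51* (chromosome 6), neither with a row of that name, and whether reads were shared with them was not tested.

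**Figure D2:**
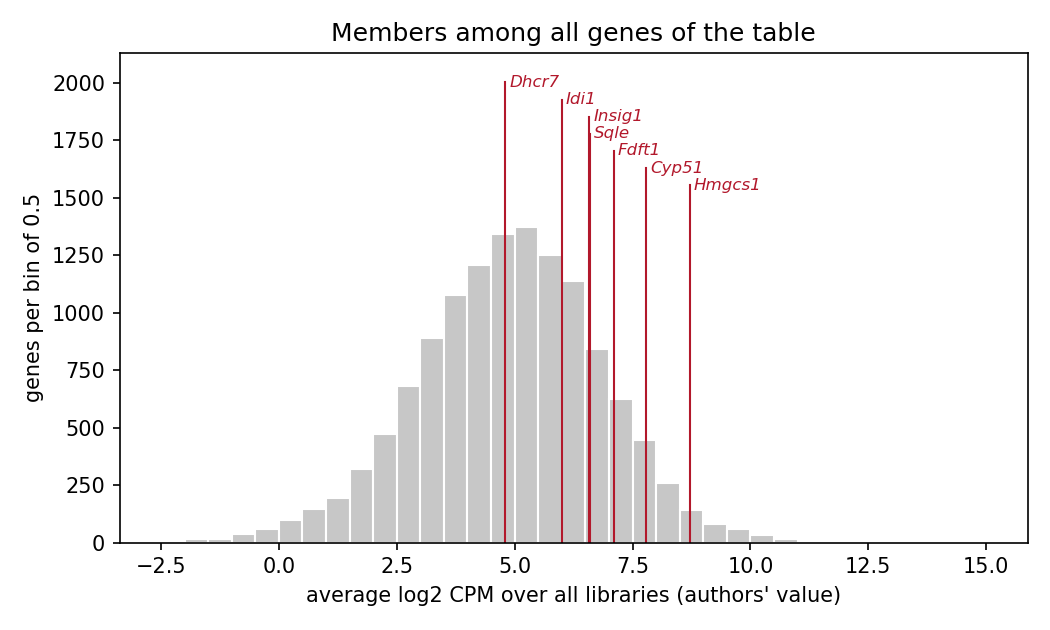
Number of genes of the table in bins of 0.5 in average log2 CPM (grey bars), with a red line at the value of each of the 7 members. *Dhcr7* (4.80) sits near the peak of the distribution, *Sqle* and *Insig1* nearly coincide at 6.61 and 6.58, and *Hmgcs1* (8.72) is in the upper tail.

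The other enzymes of the route were taken from a list of 20 genes, of which 17 had a row. Their median log2 CPM was 5.31, with values from 3.53 to 8.06, and 10 of the 17 lay above the median of all rows and 5 in the top 25%. Of these, *Sc5d*, a desaturase of the sterol ring, had the largest average log2 CPM, 8.06, and *Fdps*, which makes farnesyl diphosphate, had 7.62. The 6 member enzymes took 971 CPM and all 23 enzymes with a row took 2297 CPM, so that the members held 42.3% of the reads of the route. *Faxdc2*, *Idi2* and *Lbr* had no row under these symbols, so they enter the promoter counts alone.

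**Figure D3:**
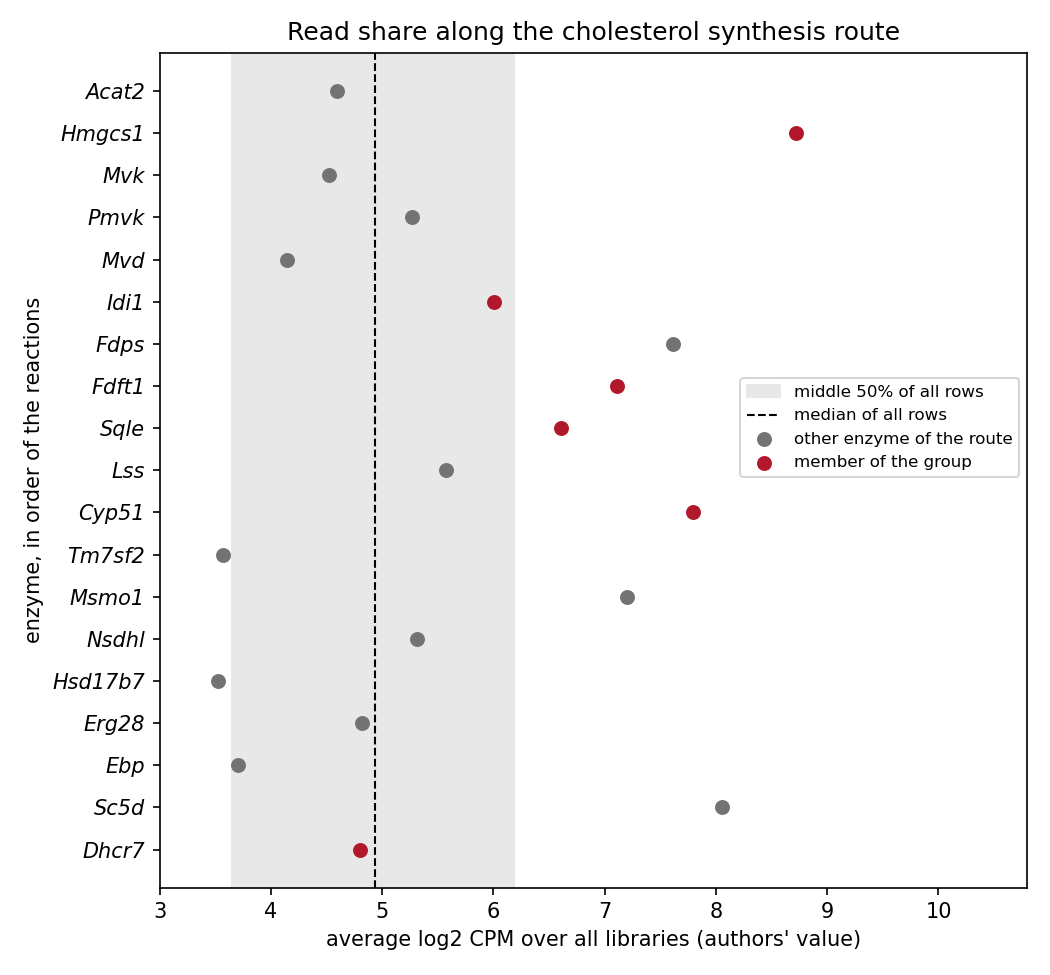
Average log2 CPM of 19 enzymes in the approximate order of their reactions, from *Acat2* at the top to *Dhcr7* at the bottom; red points are members, grey points other enzymes, the grey band the middle 50% of all rows and the dashed line their median (4.94). *Hmgcs1* has the largest read share, and the late enzyme *Sc5d* (8.06) lies far to the right of *Dhcr7* (4.80).

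Promoter windows, 20 in all, were found for 16 of the 20 other enzymes, so some genes had more than 1. CCAAT letters were found in 13 of the 20 windows, among them those of *Fdps* and *Sc5d*, and GGGCGG letters in 12. Counted by gene, these were 13 and 12 of the 16 genes. Of the windows of genes in the table, 37.0% held CCAAT and 61.7% held GGGCGG. CACCCCAC occurred in the window of 1 of them, *Ebp*, the sterol isomerase. On the same letters the members counted 3, 4 and 0 of 5, and no test was made of the difference between the lists.

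The genes that sense sterols and control SREBP were read nearly completely, 13 of 14 with a row, at a median log2 CPM of 5.26 and a range of 1.73 to 7.80. *Srebf2*, which encodes SREBP2, had an average log2 CPM of 7.80. *March6*, a ubiquitin ligase that acts on enzymes of the route, had 7.61. *Scap*, the escort held by INSIG1, had 6.83, and *Srebf1*, the relative that governs fatty acid genes, had 6.06; these 2 were named after their values were seen.

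Uptake and transport of cholesterol inside the cell were represented by 15 genes, all with a row, at a median log2 CPM of 6.21. *Lrp1*, a large receptor for apolipoprotein E, had 9.64, the third quartile of all rows being 6.18. *Lrp8*, a lipoprotein and reelin receptor, had 6.78, and *Osbp*, a sterol carrier at membrane contacts, had 6.75. Of the 15 genes, 12 were above the median of all rows and 8 were in the top 25%.

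Of 13 genes of efflux, esterification and turnover, 11 had a row, at a median log2 CPM of 5.17. *Apoe*, the lipoprotein that carries cholesterol from astrocytes to neurons, had 11.15, or 2267 CPM, and this 1 gene took more reads than the 7 members together. *Nceh1*, a neutral cholesterol ester hydrolase, had 7.50. *Cyp46a1*, the neuronal hydroxylase through which the brain disposes of cholesterol, had 6.85. The lowest value, named after it was seen, was 1.57 for *Ch25h*. *Apoa1* and *Cyp39a1* had no row under these symbols.

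The tissue was a mixture of cell types, and fewer cells of a type cannot be told apart in it from less RNA per cell. Myelin and oligodendrocyte markers, 8 of 8 with a row, had a median log2 CPM of 8.90 and took 1.45% of the reads, with *Mbp* and *Mobp* among the highest. The 7 astrocyte markers had a median of 8.96, led by *Aqp4*, *Slc1a3* and *Gfap*, and the 5 neuron markers one of 8.80, led by *Snap25*, *Syt1* and *Stmn2*. Oligodendrocyte precursor markers (5 of 5, median 5.62), endothelial markers (4 of 5, median 6.02) and microglia markers (5 of 6, median 4.46) took fewer reads. Which of these cells the reads of the 7 genes came from was not tested.

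Among regional markers, the list of ARC neurons had the lowest median log2 CPM, 2.45, with 7 of 9 genes having a row. *Cartpt* had 6.02, *Pomc* 4.67 and *Tac3* 4.34, and the lowest of the 7 had 0.08. The 8 striatum markers had a median of 5.67, from 4.26 to 7.68, and 5 of 7 markers of cortex and hippocampus had a median of 7.17, from 2.40 to 8.44. Markers of tanycytes and ependyma, the cells lining the third ventricle, had a row for 3 of 6 genes, with values from 0.08 to 7.32. *Npy* and *Nr5a2* of the ARC list had no row under these symbols, so the median of that list leaves them out. The median of the ARC list thus lay below those of the striatum list and of the cortex and hippocampus list, while the values of single genes in the 3 lists overlapped. Each list holds different genes, so these medians do not rank the tissues. Whether tissue from outside the ARC was in the samples, and its part in the values of the 7 genes, was not tested.

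**Figure D4:**
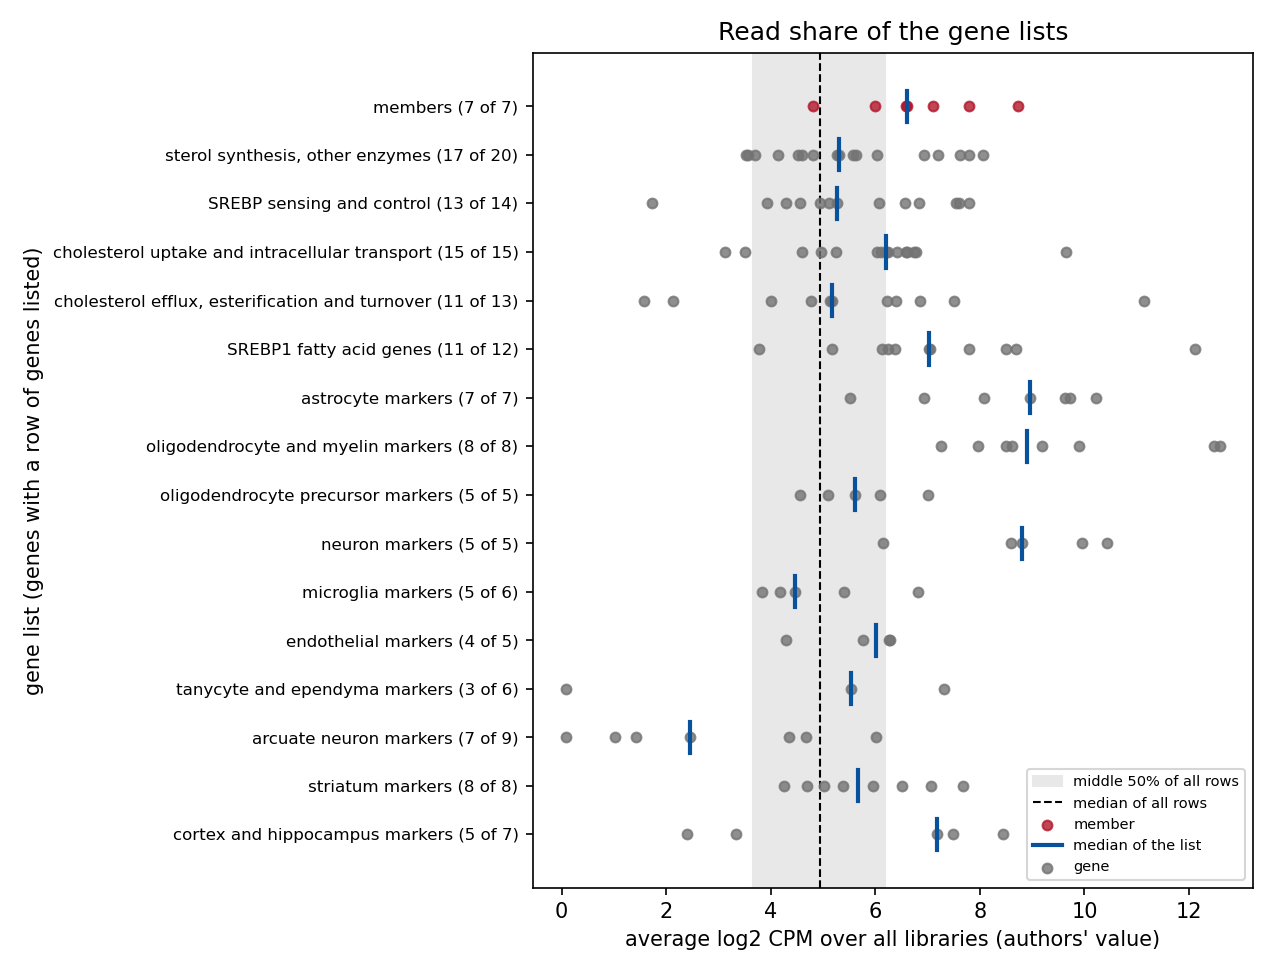
Average log2 CPM of each gene with a row, by list, with the number of genes that had a row of those listed; blue bars are list medians, the grey band is the middle 50% of all rows and the dashed line is their median (4.94). The members (red, median 6.61) lie to the right of the other synthesis enzymes (5.31) and to the left of the myelin (8.90) and astrocyte (8.96) markers.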

How the data were processed

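RNA from the ARC of 10 Wistar dams (5 fed 5X-FA, 5 fed 5X-MTHF, grouped by their titles) had been sequenced after poly-A selection. According to the submitters' processing notes and the methods, Trim Galore 0.5.0 trimmed the reads, STAR 2.6.0c placed them on Rnor_6.0, and HTSeq 0.6.1p2 counted them over Ensembl gene models. The authors deposited for each gene a single log2 CPM, taken here as the average over all libraries. The tool that made it is not given in the sources used here. Its antilogs summed to 1002152 over the 12828 rows, so each value is relative to the reads on listed genes.

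The other 4 columns of statistics hold the authors' own comparison of the diets (its fold change, F value, significance and false discovery rate), which was not used. The 10 columns of per-sample values carry headers found in none of the labels, so they entered no step. The diet tests planned on values per dam were therefore not run.

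Read shares were ranked over all rows and over the 12383 protein-coding rows, with no pseudocount or filter added here. The deposited values are labelled as filtered, and the paper describes a minimal filter on reads per gene. Percentiles are therefore among the genes that were kept, and a gene with no row may have been removed by that step. Whether the authors' value holds a pseudocount is not known. Symbols were matched exactly. Motifs were searched on both strands, overlaps included, in RefSeq promoter windows (GRCr8), whose strand was checked on 310 overlapping pairs. The motif search was tested on simulated data. The members, lists and motifs were chosen with earlier results of these data known, and TATAAA and CACGTG after the windows were read. The rule was to name the 3 genes with the highest value of each list. Some of these are not reported here, and the lists of oligodendrocyte precursors, endothelium, microglia, tanycytes, striatum and cortex are given by counts, medians or ranges alone. Genes of a list named outside this rule are marked. Scripts ran in Python 3.11.15 with pandas 2.3.3, numpy 2.4.6 and scipy 1.17.1, and figures were drawn with matplotlib 3.10.9. Depth per library and its error are unknown from the value used.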

Additional observations from a re-analysis of the deposited data

How the results depend on the processing

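Ranked among protein-coding rows only, 5 of the 7 genes were again in the top 25% of read shares. The percentile of *Dhcr7* went from 47.0 to 45.5, the only one of the 7 to leave its 95% exact binomial interval, and that of *Idi1* from 71.6 to 70.8. That interval treats the rows as random draws. It measures no spread between dams or reads and serves here only as a yardstick for the shift. On the gene's strand alone, CCAAT letters were found in 0 windows of members instead of 3, and GGGCGG letters in 3 instead of 4. Against windows of genes in the table instead of all windows, the share with GGGCGG went from 33.1% to 61.7%.

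No paired analysis was possible because no column of values per dam carries a sample's label. For the same reason other pseudocounts, filters on low values, scalings and prior variances, and fits with single dams left out, were not run. Read shares per kb were not run, since no transcript length was at hand.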

Other observations

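The genes of fatty acid synthesis and desaturation that SREBP1 governs had the highest median read share of the lipid lists. Of 12 genes 11 had a row, with a median log2 CPM of 7.03 beside 6.61 for the 7 cholesterol genes, and 8 of the 11 were in the top 25% of all rows. *Scd2*, a stearoyl-CoA desaturase, had 12.11, or 4407 CPM. *Fasn*, fatty acid synthase, had 8.69 and *Acly*, which supplies cytosolic acetyl-CoA to both routes, had 8.51. CCAAT letters were found in windows of 6 of the 9 genes that had a promoter window, and CACCCCAC in none of the 9. In the lists on control of SREBP, uptake and efflux, CACCCCAC was also found in 0 windows.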
